A study of Mus musculus with 8 samples.

Results

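Rab genes encode small GTPases of membrane traffic, and 52 of them had values among the 14353 genes of the ventral pallidum (VP) table. Members were the protein-coding genes whose symbol is Rab, a number and at most 1 letter with or without a further number, with 1 entry each. A further 7 annotated Rab symbols (Rab17, Rab19, Rab20, Rab25, Rab32, Rab38 and Rab44) were not analysed here. RNA from VP tissue of untreated mice was sequenced in 2 fractions, TRAP and INPUT. TRAP (translating ribosome affinity purification) is mRNA collected with HA-tagged ribosomes, and INPUT is mRNA of the pool's lysate, although the methods also speak of sequencing an unbound fraction. Every library came from vGluT2-Cre x RiboTag animals, homozygous for VGluT2-Cre and heterozygous for Rpl22, so both fractions carry both alleles, and the tag is placed on the ribosomes of cells in which the vGluT2 locus has driven Cre. There were 4 pools, each with both fractions (n = 4 per fraction). VP1.6 held mice of 9 to 12 weeks and the later pools (VP2.2, VP2.6, VP2.11) mice of 10 to 16 weeks, with 7 to 11 mice of both sexes in a pool and 38 in all, so a replicate is a pool and not an animal.

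A Rab protein works as a switch. It binds its membrane and its effectors while loaded with GTP and returns to the cytosol, held by a GDP dissociation inhibitor, once its GTP is hydrolysed. Guanine nucleotide exchange factors (GEFs) load the GTP, GTPase-activating proteins (GAPs) speed its hydrolysis, and each compartment carries its own Rab proteins. In neurons, Rab3 and Rab27 proteins sit on synaptic and secretory vesicles, Rab5 marks early endosomes, Rab11 recycling endosomes, Rab7 late endosomes, and Rab1, Rab2 and Rab6 serve traffic between the endoplasmic reticulum (ER) and the Golgi.

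Without a pool term, Rab3a and Rab3c were called higher in TRAP than in INPUT, the only Rab genes that were, whereas 24 Rab genes were called lower. With the pool as a block, neither Rab3a nor Rab3c was called and 15 Rab genes were lower. Values were deposited as log2 CPM (read counts scaled to a common library size) and are set back to CPM where stated, and calls are an adjusted p under 0.05 from limma over all 14249 genes tested. Every one of the 52 Rab genes passed the filter of over 1 CPM in at least 3 libraries. However, Rab4b and Rab29 passed through INPUT alone, the fraction in which both are higher. With no further filter the same numbers of Rab genes were called higher and lower without the block. That fit cannot lift the selection, since the authors had already excluded genes by a filter at 1 CPM. The fit with the fraction alone called 3.85% of the Rab genes higher and 46.2% lower, against 23.2% and 24.8% of all genes tested. With the pool as a block, 0 Rab genes were higher and 15 (28.8%) lower, against 15.4% and 16.8% of all genes. In either direction, 26 Rab genes (50%) were called without the block and 15 (28.8%) with it, where the share over all genes was 47.9% and 32.2%. At an unadjusted p under 0.05 the blocked limma fit had 2 Rab genes higher and 21 lower. Each of the 15 was among the 24, and each was lower in TRAP in 4 of 4 pools. All TRAP libraries lay above all INPUT libraries for 2 Rab genes (background 23.3%) and below them for 27 (background 24.4%). The log2 fold change was negative for 43 of the 52 genes, with a median of -0.41 against -0.05 over all genes tested. Within a pool, TRAP and INPUT departed from their fraction means in opposite directions (Pearson's r -0.745 to -0.495 across genes, against 0.0457 to 0.441 for libraries of different pools), and the standard error was larger with the block for all 52 Rab genes. Both fits are therefore given. Where a pool's libraries depart in opposite directions, the fit without the block understates the error of their difference. Calls made by that fit alone are therefore the weaker ones. Opposite departures are not usual for libraries scaled one by one, and what step of the processing left them in the deposited values is not given in the sources used here, so the CPM values hold only as deposited. Once a trend of the values on exon length was removed, 2 Rab genes were higher and 21 (40.4%) lower without the block, against 20.8% and 25.3% of all genes, and 1 and 19 (36.5%) with it, against 14% and 17.6%. The 15 genes lower with the block kept the call and Rab5a, Rab11b, Rab18 and Rab30 joined them, while 7 of the 24 lower without it lost it (Rab1b, Rab4a, Rab9, Rab24, Rab40b, Rab40c and Rab42).

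The tissue and the tagged cells were checked with marker genes. The 4 glutamatergic markers summed to 213 to 260.1 CPM in TRAP and 37.2 to 77.5 CPM in INPUT, and 3 of them were higher in both fits. All 5 neuronal markers were higher in the fit with the fraction alone, and 4 in the blocked fit. Most markers of glia were lower in TRAP but none was at 0 there, the lowest value being 0.723 CPM. Summed astrocyte markers stood at 149.7 to 253 CPM in TRAP against 343 to 502 CPM in INPUT (4 of 5 lower in both fits), oligodendrocyte markers at 900.1 to 1631 CPM against 3506 to 3807 CPM (4 of 5 lower in both fits, with Mag higher without the block), and microglial markers at 23.7 to 31.8 CPM against 78.8 to 126 CPM (5 of 5 lower without the block, 3 with it). Summed endothelial markers stood at 10.3 to 53.1 CPM in TRAP against 3.00 to 11 CPM in INPUT, with 1 of 3 tested higher without the block and 2 with it. Of the 3 GABAergic markers, 1 was lower in both fits, and their sum was 918 to 1573 CPM in TRAP against 584 to 1394 CPM in INPUT. VP2.2 set both the highest TRAP and the lowest INPUT sum, with Gad1 at 828 CPM in TRAP and 263 CPM in INPUT. In the other pools all 3 GABAergic markers were lower in TRAP. The part of these cell types in the Rab values was not tested, and in bulk RNA fewer cells of a type and less RNA per cell cannot be told apart. Depth could be recovered for 2 pools, VP2.2 with 12.5 M reads in TRAP against 37.8 M in INPUT, and VP2.6 with 12.6 M against 25.0 M.

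**Figure D1:**
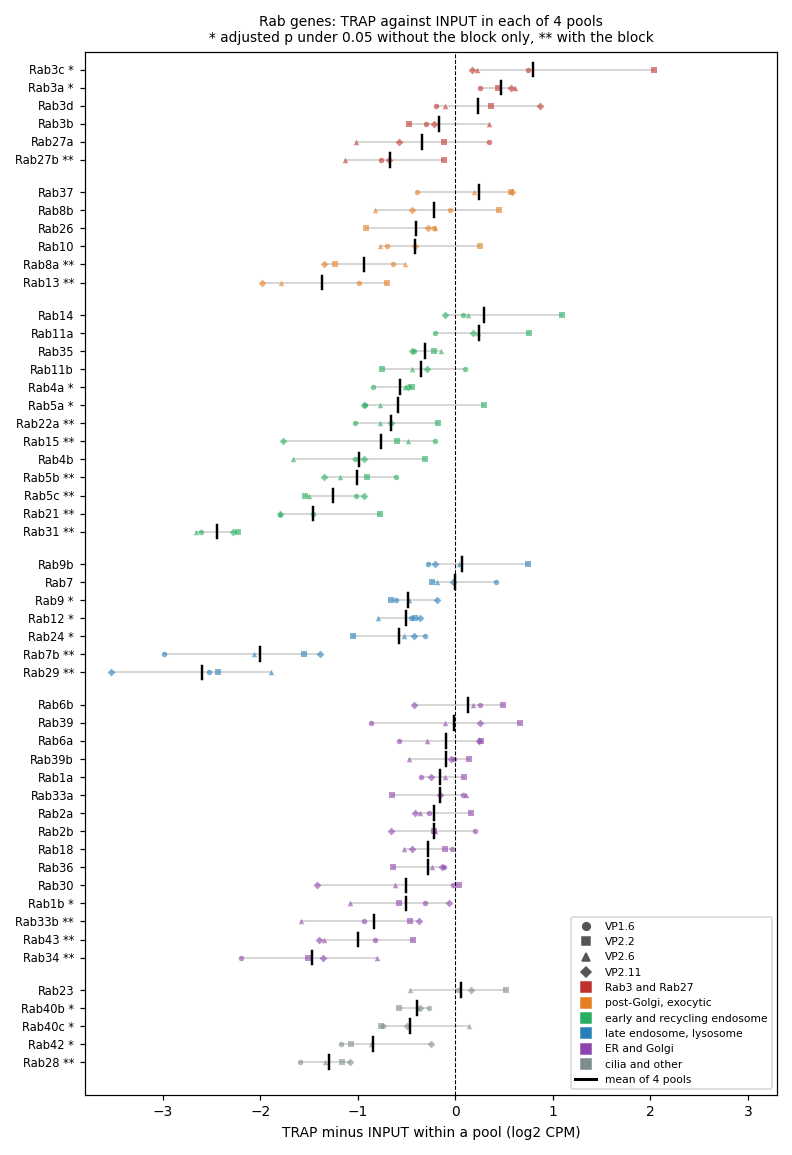
TRAP minus INPUT on the log2 CPM scale for each of the 52 Rab genes (rows, grouped by site of action), with 1 point per pool and a black bar at the mean of 4 pools. Points left of the dashed line are lower in TRAP, as are the means of 43 genes, and Rab3c and Rab3a stand furthest to the right.

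DNA before a start site of the 2 genes called higher and of the 2 genes with the largest falls is shown here so that the members can be compared by sequence. Each stretch runs from 250 to 61 bases before the start site in the RefSeq promoter table (GRCm38.p6), 190 bases on the gene's own strand and outside annotated exons. The Rab3a stretch lies at chr8:70754453-70754642 on the plus strand, Rab3c at chr13:110280267-110280456 on the minus strand, Rab31 at chr17:65772813-65773002 on the minus strand and Rab29 at chr1:131867027-131867216 on the plus strand. The Rab3c stretch lies inside the annotated span of that gene (110054187 to 110280996), whose start is further out than the start site used here. Capitals mark a GC box, the letters GGGCGG, which appear as CCGCCC where the box lies on the other strand. They also mark TGACG, which forms part of a cAMP response element and was likewise searched on both strands. The motifs can share 1 base at their ends.
Rab3a: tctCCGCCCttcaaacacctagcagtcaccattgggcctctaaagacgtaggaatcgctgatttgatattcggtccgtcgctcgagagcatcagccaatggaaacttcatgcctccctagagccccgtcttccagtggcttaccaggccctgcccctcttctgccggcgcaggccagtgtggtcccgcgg
Rab3c: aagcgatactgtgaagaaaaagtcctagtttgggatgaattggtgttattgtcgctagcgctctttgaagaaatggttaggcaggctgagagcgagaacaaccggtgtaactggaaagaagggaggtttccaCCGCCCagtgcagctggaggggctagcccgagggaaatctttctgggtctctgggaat
Rab31: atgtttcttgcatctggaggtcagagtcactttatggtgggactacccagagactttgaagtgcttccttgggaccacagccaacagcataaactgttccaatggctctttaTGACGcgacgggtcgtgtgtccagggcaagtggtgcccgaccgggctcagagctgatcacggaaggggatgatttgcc
Rab29: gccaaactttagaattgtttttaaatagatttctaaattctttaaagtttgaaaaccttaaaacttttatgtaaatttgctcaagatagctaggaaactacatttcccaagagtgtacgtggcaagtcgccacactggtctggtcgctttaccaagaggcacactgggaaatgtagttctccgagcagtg
The windows of Rab3a and Rab3c each held 1 GC box and no TGACG, that of Rab31 held 1 TGACG and no GC box, and that of Rab29 held neither. Of the 52 Rab genes, 43 matched the table. These 43 genes have 55 windows, since some genes have several starts. A GC box was present in 25 of the 55 windows (45.5%), and 29.5% of 21263 windows of protein-coding genes held one. TGACG was present in 15 of the 55 (27.3%) and in 13% of all windows. Windows of a gene can overlap and are not independent. A match is a description of these letters, and no match says only that they are not in this window.

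Among the 6 Rab3 and Rab27 genes, 2 were higher and 1 was lower without the block (over all genes 23.2% and 24.8%), and 0 and 1 with it (15.4% and 16.8%). Their median log2 fold change was 0.04. Rab3a (ENSMUSG00000031840, chromosome 8 of GRCm38, 70754679 to 70758677) encodes the main Rab of synaptic vesicles. Given by pool from VP1.6 through VP2.2 and VP2.6 to VP2.11, its level was 506, 508, 568 and 576 CPM in TRAP and 425, 376, 372 and 388 CPM in INPUT. Every TRAP library was above every INPUT library. The means were 539 ± 38 CPM (SD, n = 4) and 390.0 ± 24.1 CPM (SD, n = 4), a log2 fold change of 0.47 (standard error, SE, 0.12 without and 0.22 with the block) and a fold of 1.38. limma gave an adjusted p of 0.0092, or 0.114 with the block, and 0.081 without the block when VP2.6 was left out. After removal of the exon length trend, Rab3a was the 1 Rab gene called higher with the block (log2 fold change 0.73, limma's adjusted p 0.012).

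Rab3c (ENSMUSG00000021700, chromosome 13, 110054187 to 110280996) encodes a close relative of Rab3a that is also found on synaptic vesicles. Its level was 737, 890.3, 603 and 596 CPM in TRAP and 439.6, 217, 517 and 530.1 CPM in INPUT, in the same order of pools. The fractions did not overlap, and VP2.2 held both the highest TRAP and the lowest INPUT value. The log2 fold change was 0.79 (SE 0.27 without and 0.29 with the block), with a limma adjusted p of 0.035 and, blocked by pool, 0.051. The differences within pools were 0.75, 2.04, 0.22 and 0.17. The log2 fold change was 0.38 without VP2.2 (limma's adjusted p 0.040), and the call was lost without VP1.6 (adjusted p 0.115) and without VP2.6 (0.051). The exon model of Rab3c is long, at 12049 bases, and with the length trend taken out its log2 fold change was 0.25 (limma's adjusted p 0.312 and, blocked by pool, 0.421).

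**Figure D2:**
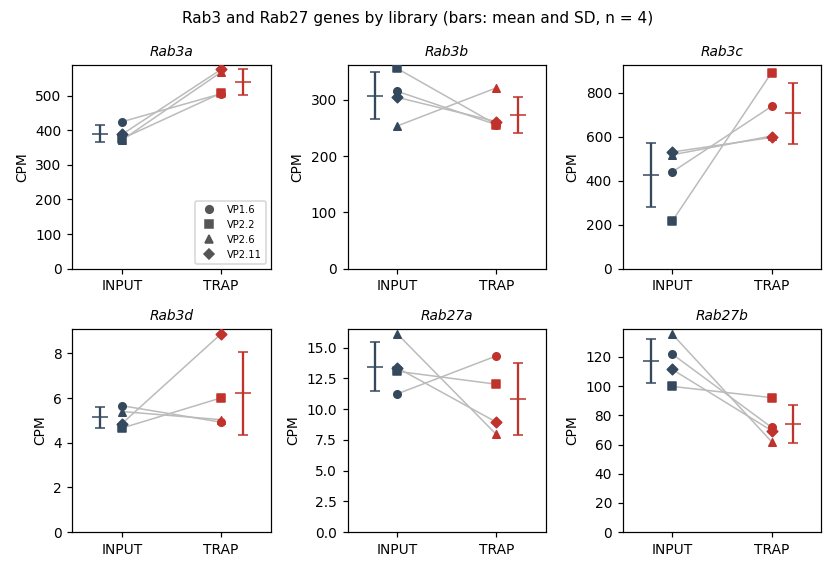
CPM of the 6 Rab3 and Rab27 genes in each library, INPUT at the left and TRAP at the right of each panel, with a line joining the libraries of a pool and bars for the mean and SD (n = 4). The lines of Rab3a and Rab3c rise in all 4 pools and those of Rab27b fall in all 4, while those of Rab3b, Rab3d and Rab27a cross.

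None of the other Rab3 and Rab27 genes was called higher. Rab3b (ENSMUSG00000003411, chromosome 4, 108879063 to 108943324) had 256, 256, 321 and 261 CPM in TRAP and 315, 356, 254 and 304 CPM in INPUT. Its groups overlapped, VP2.6 alone had a higher value in TRAP, and the log2 fold change was -0.16 (SE 0.14, limma's adjusted p 0.365 and, blocked by pool, 0.605). Rab3d (ENSMUSG00000019066, chromosome 9, 21907491 to 21918192), which is best known from secretory granules outside the brain, had 4.92, 6.01, 5.03 and 8.88 CPM in TRAP and 5.66, 4.66, 5.40 and 4.86 CPM in INPUT. It was higher in 2 of 4 pools, with a log2 fold change of 0.23 (SE 0.23, limma's adjusted p 0.425 and, blocked by pool, 0.642). Rab27a (ENSMUSG00000032202, chromosome 9, 73044854 to 73097629), which acts in the docking of secretory granules and melanosomes, had 14.3, 12.0, 7.94 and 8.94 CPM in TRAP and 11.2, 13.1, 16.1 and 13.4 CPM in INPUT. It was higher in VP1.6 and lower in the other pools (log2 fold change -0.34, SE 0.22, limma's adjusted p 0.212 and, blocked by pool, 0.404).

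Rab27b (ENSMUSG00000024511, chromosome 18, 69979131 to 70141605) was lower in TRAP. It is the Rab27 gene that is more used in neurons, where its protein acts on dense-core and synaptic vesicles. Its level was 71.8, 92.2, 62.0 and 69.6 CPM in TRAP and 122, 99.8, 136 and 111 CPM in INPUT. All TRAP values lay below all INPUT values, with the smallest gap in VP2.2. The log2 fold change was -0.67 (SE 0.15 without and 0.22 with the block), with a limma adjusted p of 0.0052 and, blocked by pool, 0.033, and 0.056 without the block when VP2.6 was left out.

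The 20 endosomal members held 13 of the 24 falls without the block and 8 of the 15 with it, and none of them was called higher. Both counts of falls include Rab29, which passed the filter through INPUT alone. Of the 13 genes of early and recycling endosomes, 8 were lower without the block and 6 with it (over all genes 24.8% and 16.8%), and their median log2 fold change was -0.66. Rab31 (ENSMUSG00000056515, chromosome 17, 65651729 to 65772752), a Rab5-like protein of the trans-Golgi network and endosomes, had 12.0, 16.0, 10.4 and 9.71 CPM in TRAP and 73.5, 75.4, 65.9 and 47.2 CPM in INPUT. Its highest TRAP library was far below its lowest INPUT library. The mean INPUT level was 5.45 times the TRAP level (ratio of geometric means), a log2 fold change of -2.45 (SE 0.20 without and 0.23 with the block), with a limma adjusted p of 5.8e-05 and, blocked by pool, 6.5e-06, the smallest of the Rab genes in either fit.

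Rab21 (ENSMUSG00000020132, chromosome 10, 115287084 to 115315594), which acts in the endocytosis of integrins, had 14.8, 20.5, 11 and 9.19 CPM in TRAP and 40.8, 35.2, 38.2 and 32.0 CPM in INPUT. The groups did not overlap, and the gap was smallest in VP2.2. Its log2 fold change was -1.46 (SE 0.23 without and 0.26 with the block; limma's adjusted p 7.6e-04 and 9.0e-04). The 3 Rab5 genes, whose proteins govern the fusion of early endosomes, all had negative log2 fold changes. Rab5c had 19.5 ± 1.97 CPM in TRAP and 46.9 ± 8.10 CPM in INPUT (SD, n = 4), a log2 fold change of -1.25, and Rab5b had 89.8 ± 16.4 CPM and 179 ± 17.0 CPM (SD, n = 4), a log2 fold change of -1.01. Both were lower in all 4 pools and called in both fits (limma's adjusted p with the block 0.0013 and 0.0029). Rab5a was called without the block only (log2 fold change -0.59, limma's adjusted p 0.034 and, blocked by pool, 0.097) and was higher in TRAP in VP2.2.

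Rab22a (ENSMUSG00000027519, chromosome 2, 173659760 to 173707343), the nearest relative of Rab31 and a protein of early and recycling endosomes, had 20.7, 28.9, 21.7 and 21.4 CPM in TRAP and 42.2, 32.6, 37.2 and 33.8 CPM in INPUT. The groups did not overlap, although VP2.2 came near to it. Its log2 fold change was -0.66 (SE 0.16 without and 0.24 with the block; limma's adjusted p 0.0059 and 0.047), and the call was lost without VP1.6 (0.058). Rab15 was lower in both fits (log2 fold change -0.76, limma's adjusted p 0.026 and, blocked by pool, 0.037), and VP2.11 differed most, by -1.77, where the rest ran from -0.59 to -0.20. Rab4a, of the fast recycling route, was lower without the block only (log2 fold change -0.57, limma's adjusted p 0.0054 and, with the block, 0.076), and its log2 fold change was -0.20 with the length trend taken out (limma's adjusted p 0.245). The remaining genes of this group were not called in either fit. They were Rab4b (log2 fold change -0.98, with means of 0.559 CPM in TRAP and 1.07 CPM in INPUT), Rab11b (-0.35), Rab35 (-0.31), Rab11a (0.24) and Rab14 (0.30). With the length trend taken out, Rab14 had a log2 fold change of -0.28, so its direction depends on that choice.

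Of the 7 genes of late endosomes and lysosomes, 5 were lower in the fit with the fraction alone and 2 in the blocked fit (over all genes 24.8% and 16.8%). Those lower in the blocked fit were Rab7b and Rab29, and Rab29 passed the filter through INPUT alone. Their median log2 fold change was -0.50. Rab29 (ENSMUSG00000026433, chromosome 1, 131867224 to 131872887), a partner of the kinase LRRK2 at the Golgi and lysosomes, had the largest fall of all Rab genes. Its level was 1.01, 0.993, 1.26 and 0.379 CPM in TRAP and 5.78, 5.34, 4.66 and 4.38 CPM in INPUT. It was over 1 CPM in 2 of 4 TRAP libraries and in all INPUT libraries, so it passed the filter through the fraction in which it is high, and the counts of falls without it are 23 and, blocked by pool, 14. The log2 fold change was -2.59 (limma's adjusted p 5.6e-04 in the fit with no further filter, which cannot lift the authors' own). Rab7b (ENSMUSG00000052688, chromosome 1, 131688695 to 131715439), of transport from endosomes to the Golgi, had 1.23, 2.57, 1.74 and 2.31 CPM in TRAP and 9.78, 7.52, 7.29 and 6.06 CPM in INPUT. No TRAP library reached the lowest INPUT value, and its log2 fold change was -2.0 (SE 0.29 without and 0.42 with the block; limma's adjusted p 4.4e-04 and 0.0025). Both were low in TRAP, so counting error is large there.

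Rab7, the main Rab of late endosomes, had 391 ± 40.6 CPM in TRAP and 392 ± 40.6 CPM in INPUT (SD, n = 4). Its log2 fold change was -0.01 (SE 0.13, limma's adjusted p 0.974 and, blocked by pool, 0.987), and its sign changed under other settings. Rab9 (log2 fold change -0.48), Rab12 (-0.50) and Rab24 (-0.58) were lower in all 4 pools and called without the block, and had a limma adjusted p of 0.090, 0.084 and 0.096 with it. Without the length trend, Rab9 had -0.12 and Rab24 -0.26, and neither was called (limma's adjusted p 0.395 and 0.090 without the block). Rab9b had a log2 fold change of 0.07 and was not called. Of the exon bases of Rab24, 62.4% are shared with Prelid1 on the other strand, and the strand setting of the authors' count is not given in the sources used here.

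**Figure D3:**
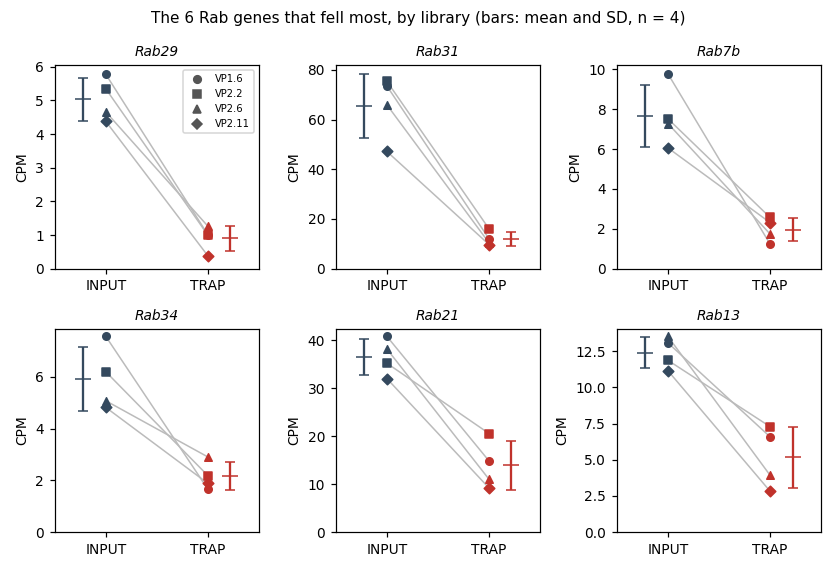
CPM in each library of the 6 Rab genes with the largest falls that were called without the block, drawn as in the plot of the Rab3 and Rab27 genes (bars are mean and SD, n = 4). All 24 lines fall from INPUT to TRAP, and in no panel do the fractions overlap.

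Of the 6 genes of post-Golgi and exocytic transport, 2 were lower in both fits (over all genes 24.8% and, with the block, 16.8%) and none was higher. Their median log2 fold change was -0.41. Rab13 (ENSMUSG00000027935, chromosome 3, 90213695 to 90226385), a gene of traffic to cell junctions, had 6.59, 7.29, 3.93 and 2.83 CPM in TRAP and 13.1, 11.9, 13.5 and 11.2 CPM in INPUT. The groups did not overlap, and the log2 fold change was -1.36 (SE 0.29 without and 0.33 with the block; limma's adjusted p 0.0035 and 0.0063). Rab8a, which acts in traffic from the Golgi to the plasma membrane and the cilium, had 66.9 ± 13.2 CPM in TRAP and 127 ± 21.8 CPM in INPUT (SD, n = 4), a log2 fold change of -0.93 (limma's adjusted p 0.0020 and, with the block, 0.0060). The paralog Rab8b was not called (-0.21), nor were Rab10 (-0.41), Rab26 (-0.41), which directs synaptic vesicles to autophagy, and Rab37 (0.24). Rab26 was nevertheless lower in 4 of 4 pools.

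By its median, the group of 15 ER and Golgi genes lay nearest to the Rab3 and Rab27 genes, at a median log2 fold change of -0.22. Of these 15 genes, 4 were lower without the block and 3 with it, close to the 24.8% and 16.8% of all genes. Rab34 (ENSMUSG00000002059, chromosome 11, 78188430 to 78192193), which acts at the Golgi and in the formation of cilia, had 1.66, 2.18, 2.91 and 1.88 CPM in TRAP and 7.57, 6.20, 5.08 and 4.82 CPM in INPUT. The groups did not overlap, and the gap was widest in VP1.6 and narrowest in VP2.6. Its log2 fold change was -1.47 (SE 0.27 without and 0.41 with the block; limma's adjusted p 0.0014 and 0.015). Rab33b, of autophagosome formation and retrograde Golgi traffic, was lower in both fits (log2 fold change -0.84, limma's adjusted p with the block 0.020), as was Rab43 (-1.0, limma's adjusted p with the block 0.049), although 75.4% of the exon bases of Rab43 are shared with Gm45140 on the same strand. Rab1b was called without the block only (log2 fold change -0.51, limma's adjusted p 0.026 and, with the block, 0.119), and its log2 fold change was -0.26 with the length trend taken out (limma's adjusted p 0.224).

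The remaining 11 genes of the ER and Golgi group were not called in either fit. The abundant members lay near 0, with log2 fold changes of -0.15 for Rab1a, -0.22 for Rab2a, -0.09 for Rab6a and 0.13 for the neuronal form Rab6b. Rab6b had 528 ± 64.1 CPM in TRAP and 485 ± 71.0 CPM in INPUT (SD, n = 4). Rab2b had -0.22, and 64.0% of its exon bases are shared with other genes on the opposite strand. The others were Rab33a (-0.15), Rab39 (-0.01), Rab39b (-0.10), Rab18 (-0.28), Rab36 (-0.28) and Rab30 (-0.50), the log2 fold change being given for each. With the length trend taken out, Rab33a had a log2 fold change of 0.38 and was called without the block (limma's adjusted p 0.027 and, with the block, 0.131), and Rab18 (-0.56) and Rab30 (-0.96) were called lower with the block (limma's adjusted p 0.028 and 0.020).

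Of the 5 genes of cilia and other sites, 4 were lower without the block and 1 with it (over all genes 24.8% and 16.8%). Rab28, which acts in cilia and in the shedding of photoreceptor discs, had 18.6 ± 2.09 CPM in TRAP and 45.6 ± 6.01 CPM in INPUT (SD, n = 4). It was lower in all 4 pools, by 1.08 to 1.59 on the log2 scale, with a log2 fold change of -1.29 (limma's adjusted p 1.5e-04 and, with the block, 9.3e-04). Rab42 (log2 fold change -0.84), Rab40c (-0.47) and Rab40b (-0.40) were called without the block, with a limma adjusted p of 0.112 to 0.196 with it, and Rab40c was higher in TRAP in VP2.6. Without the length trend, the log2 fold changes were -0.076 for Rab42, -0.35 for Rab40c and -0.084 for Rab40b, and none was called (limma's adjusted p 0.734, 0.092 and 0.531 without the block). Rab23, an inhibitor of Hedgehog signalling, had a log2 fold change of 0.06 and was not called.

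Set side by side, the 46 genes other than Rab3 and Rab27 had a median log2 fold change of -0.48, with 23 lower and 0 higher without the block and 14 and 0 with it. The lower genes include Rab29 in both fits. The median of the Rab3 and Rab27 genes was 0.03, 0.13, 0.06 and -0.025 in the 4 pools, listed as before. That of the 46 genes was -0.44, -0.44, -0.52 and -0.42, and that of all genes tested -0.02, -0.02, -0.04 and -0.01. In each pool the median of each of the other 5 groups lay below that of the Rab3 and Rab27 genes and below that of all genes tested. These are descriptions of groups chosen by site of action, with no test of the groups.

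**Figure D4:**
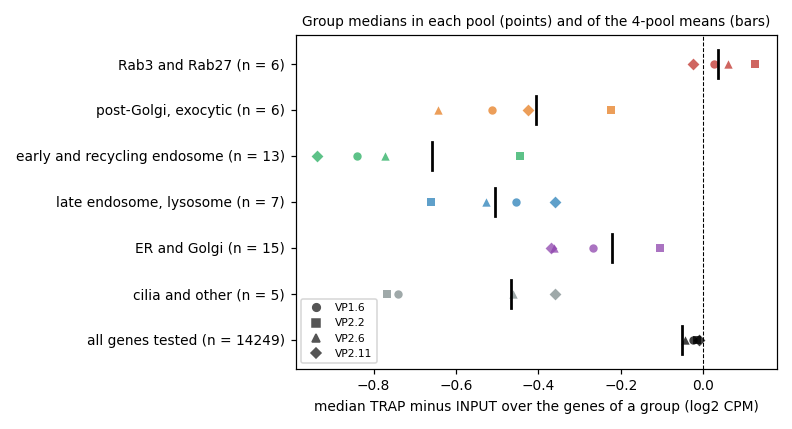
Median TRAP minus INPUT difference (log2 CPM) over the genes of each group, with 1 point per pool and a black bar at the median of the 4-pool means. The Rab3 and Rab27 genes lie near 0 in all 4 pools, between -0.025 and 0.13, and the early and recycling endosome genes lie at -0.94 to -0.44.

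Levels were compared between genes as CPM per kilobase of exon. Rab3a was the most abundant Rab gene per kilobase in both fractions, at 242 ± 17.1 CPM per kb in TRAP and 175 ± 10.8 CPM per kb in INPUT (SD, n = 4). Rab7 followed at 149.7 ± 15.6 CPM per kb in TRAP, and its spread did not reach that of Rab3a. Rab6b (105 ± 12.7), Rab2a (92.2 ± 8.42), Rab6a (90.5 ± 12.7) and Rab3b (77.6 ± 9.05) came next in TRAP, and neighbours among these did not differ beyond their spread. Rab3c took rank 8 in TRAP, at 58.6 ± 11.5 CPM per kb, and rank 13 in INPUT, at 35.3 ± 12.0 CPM per kb. Rab31 moved the other way, from rank 21 in INPUT, at 17.2 ± 3.38 CPM per kb, to rank 38 in TRAP, at 3.16 ± 0.744 CPM per kb. The lowest member in both fractions was Rab4b, at 0.284 ± 0.0814 CPM per kb in TRAP, and 65.0% of its exon bases are shared with other genes on the same strand.

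Paralogs measured in the same library were compared as the difference of their log2 CPM, which does not depend on the scaling of the library. Of 17 pairs, 2 reached the smallest p possible with 4 libraries in each fraction. The Rab3a minus Rab3b difference was 0.98, 0.99, 0.82 and 1.14 in TRAP and 0.43, 0.08, 0.55 and 0.35 in INPUT, in the same order of pools. The balance thus lay further towards Rab3a in TRAP in 4 of 4 pools, by 0.63 on average (exact two-sided permutation test, p = 0.029, 0.162 after Benjamini-Hochberg adjustment over 17 pairs). The Rab22a minus Rab31 difference was 0.79, 0.85, 1.06 and 1.14 in TRAP and -0.80, -1.21, -0.83 and -0.48 in INPUT. Rab22a exceeded Rab31 in all TRAP libraries and lay below it in all INPUT libraries, and the change was 1.79 (exact two-sided permutation test, p = 0.029, adjusted p 0.162). The exact sign-flip test over the pools, whose smallest p is 0.125, gave 0.125 for both pairs. No pair passed the adjustment. The change of the other pairs ran from -0.72 for Rab8a minus Rab8b to 0.68 for Rab33a minus Rab33b, and that of Rab3a minus Rab3c was -0.33 and turned positive without VP2.2.

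Among the regulators and effectors of Rab proteins, more genes were called higher than lower. Of 109 genes listed from textbook knowledge, 95 were tested, and 30 were higher and 13 lower in TRAP without the block, against 22 and 8 with it. These are 31.6% and 13.7% of the genes tested without the block, beside a background of 23.2% and 24.8%, and 23.2% and 8.42% with it, beside 15.4% and 16.8%. The median log2 fold change was 0.17. With the length trend taken out, 17 (17.9%) were higher and 23 (24.2%) lower without the block, beside 20.8% and 25.3% of all genes, and 13 (13.7%) and 13 (13.7%) with it, beside 14% and 17.6%, and the median was -0.057. The balance of the list thus depends on that choice, and 9 genes higher with the block lost the call (Appl1, Chm, Ocrl, Vps39, Rabgap1, Rabgap1l, Gdi2, Rab3gap1 and Rab3gap2). Over all genes, longer exon models went with larger log2 fold changes (Spearman's rho 0.412; genes are not independent replicates).

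Of 10 Rab3 and Rab27 effectors tested, 4 were higher in both fits (over all genes 23.2% and, with the block, 15.4%). Rph3a (rabphilin-3A, a Rab3 effector of synaptic vesicles) had 512, 405, 542 and 443 CPM in TRAP and 135, 97.2, 117 and 165 CPM in INPUT, again in that order. Each TRAP value was well above each INPUT value, and the log2 fold change was 1.90 (SE 0.18 without and 0.22 with the block; limma's adjusted p 7.7e-05 and 3.9e-05). Rims1, which links Rab3 to the release site, had 156, 163, 151 and 149 CPM in TRAP and 75.1, 46.6, 74.5 and 85.6 CPM in INPUT. The groups did not overlap, with a log2 fold change of 1.17 (limma's adjusted p 6.1e-04 and, with the block, 0.0015). Its paralog Rims2 had 45.9, 53.8, 37.2 and 29.4 CPM in TRAP and 42.2, 32.7, 50.2 and 50.9 CPM in INPUT, with a log2 fold change of -0.10 (limma's adjusted p 0.730 and, with the block, 0.810), and of -0.58 with the length trend taken out (0.016 and, with the block, 0.063). Exph5, a Rab27 effector, had 5.27, 5.38, 5.69 and 18.8 CPM in TRAP and 1.37, 1.63, 1.88 and 1.95 CPM in INPUT. VP2.11 stood far above the other TRAP libraries, and the log2 fold change was 2.13 (limma's adjusted p 0.0018 and, with the block, 0.0020). Dmxl2, also known as rabconnectin-3, was the fourth gene, with a log2 fold change of 1.58. Rph3al was lower without the block only (-1.21, limma's adjusted p 0.041 and, with the block, 0.080).

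Of 22 GAP genes tested, 13 were higher and 2 lower without the block (over all genes 23.2% and 24.8%), and 8 and 2 with it (15.4% and 16.8%). With the length trend taken out, 4 GAP genes were higher and 3 lower with the block, beside 14% and 17.6% of all genes. The GAP median log2 fold change was then 0.10, against 0.54 before. Rab3gap1 and Rab3gap2, the subunits of the enzyme that acts on Rab3 (and, as a GEF, on Rab18), had log2 fold changes of 0.83 and 0.86 (limma's adjusted p 0.0044 and 0.0059 without the block, 0.014 and 0.021 with it). Rab3gap1 had 99.6, 121, 102 and 132 CPM in TRAP and 74.5, 44.1, 72.1 and 69.1 CPM in INPUT, and Rab3gap2 had 30.1, 39.3, 32.9 and 32.9 CPM in TRAP and 20.7, 12.2, 19.9 and 23.3 CPM in INPUT. Neither gene's fractions overlapped, and both genes differed most in VP2.2. With the length trend taken out, neither was called (limma's adjusted p 0.260 and 0.249 with the block). Tbc1d30 had a log2 fold change of 1.78 (52.4 ± 12.2 CPM in TRAP and 15.4 ± 3.99 CPM in INPUT; SD, n = 4) and Tbc1d4, a GAP of Rab10 and Rab8a in insulin-responsive traffic, 1.61 (27.6 ± 9.75 CPM and 8.89 ± 2.13 CPM; SD, n = 4), both called with the block and with the length trend taken out. The 2 lower GAP genes were Tbc1d16 (-0.90) and Tbc1d20 (-0.84), the latter a GAP of Rab1.

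Among 26 GEF genes, 3 were higher and 5 lower without the block (over all genes 23.2% and 24.8%), and 2 and 3 with it (15.4% and 16.8%). Madd, the exchange factor of Rab3 and Rab27, had 128, 119, 117 and 154 CPM in TRAP and 58.5, 44.9, 62.9 and 62.2 CPM in INPUT. The groups did not overlap, with a log2 fold change of 1.19 (SE 0.15 without and 0.21 with the block; limma's adjusted p 2.5e-04 and 9.0e-04). Gapvd1, an exchange factor of Rab5, was the other gene higher in both fits (1.48). Dennd2a (-1.24), Rin2 (-1.11), a Rab5 exchange factor, and Dennd5a (-0.88) were lower in both fits. Dennd2a fell from 12.4 ± 2.21 to 5.29 ± 1.19 CPM and Rin2 from 13.4 ± 1.91 to 6.35 ± 1.93 CPM (SD, n = 4), and Rin2 differed least in VP2.11, at -0.26 on the log2 scale.

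Of 7 genes of GDP dissociation inhibitors, escort proteins and prenylation, 4 were higher and 1 lower without the block (over all genes 23.2% and 24.8%), and 3 and 0 with it (15.4% and 16.8%). Gdi2 had 754, 665, 669 and 689.8 CPM in TRAP and 416, 366, 445 and 458 CPM in INPUT, with no overlap and a log2 fold change of 0.72 (limma's adjusted p 0.0012 and, with the block, 0.021). With the length trend taken out, Gdi2 was not called (limma's adjusted p 0.124 and, blocked by pool, 0.363). Rabggta, a subunit of the enzyme that attaches the lipid anchor, had a log2 fold change of 1.20, and Chm, an escort protein, 0.87, both called in both fits.

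Of 19 endosomal effectors, 4 were higher and 3 lower without the block (over all genes 23.2% and 24.8%), and 3 and 2 with it (15.4% and 16.8%). The higher genes in both fits were Rufy1 (0.90), Appl1 (0.88), an effector of Rab5, and Vps39 (0.76), a subunit of the tether used by Rab7. Rilpl2 had the largest fall called with the block, from 10.7 ± 1.08 to 4.84 ± 1.57 CPM (SD, n = 4), a log2 fold change of -1.20 (limma's adjusted p 0.0032 and, with the block, 0.012). Among 9 Golgi effectors, Erc1 (1.58) and Ocrl (0.86) were higher and Mical1 lower in both fits. Mical1 had 1.39, 2.14, 0.85 and 0.255 CPM in TRAP and 3.51, 2.98, 3.43 and 4.00 CPM in INPUT. Its groups did not overlap but the differences within pools ran from -3.97 in VP2.11 to -0.48 in VP2.2 (log2 fold change -1.95, limma's adjusted p 0.017 with no filter beyond that of the authors). Like Dennd1c and Sytl4, Mical1 passed the filter through INPUT alone. Of the 2 kinases of Rab proteins tested, neither was called in either fit.

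**Figure D5:**
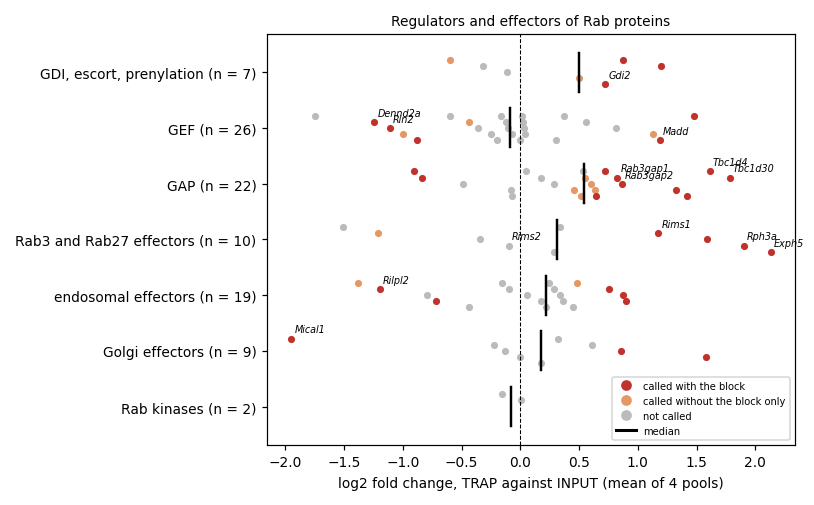
Log2 fold change of TRAP against INPUT for the 95 regulators and effectors tested, by class, with red points called with the pool block, orange points called without it only, and a black bar at the class median. The GAP class has a median of 0.54 and the GEF class of -0.09, and the 4 red points of the Rab3 and Rab27 effectors lie at 1.17 to 2.13. With the exon length trend taken out (not drawn), the GAP median is 0.10 and the GEF median -0.29.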

How the data were processed

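TRAP and INPUT libraries of 4 pools were grouped by the sample labels. The authors aligned reads with STAR 2.5.1a to an Ensembl mouse assembly, counted unique reads per gene with featureCounts, scaled them by TMM in edgeR, fitted limma with quality weights and deposited log2 CPM per library. Before the fit they excluded genes that were not above 1 CPM in a minimum number of samples. Their own comparison columns (fold changes and p-values) were not used. Of 14398 rows, 45 repeated a gene, leaving 14353. Both VP2.11 libraries and INPUT VP1.6 carry 3 significant digits only, and the depth of those pools is unknown. In VP2.2 and VP2.6, steps of whole reads in within-pool differences gave the depth (1916 of 2161 and 2761 of 2983 genes with repeated differences came out whole). No count test was run, since whole reads were found only in those differences.

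The deposited log2 values of the fractions were fitted by limma 3.58.1 (lmFit, eBayes with a trend) under R 4.3.3 over 14249 genes above 1 CPM in at least 3 libraries, with Benjamini-Hochberg adjustment and a threshold of 0.05, with the fraction alone and with the pool as a block. Pools pair the libraries because both come from 1 homogenate and the labels share the pool. Scripts were tested on simulated data. Exon lengths, positions and overlaps came from GENCODE M21 (GRCm38). Paralog differences were tested by exact permutation. Per-library values are given for the Rab3 and Rab27 genes, the 6 largest rises (2 qualified) and 6 largest falls called without the block with the same sign in all pools, pairs at the smallest p, and, of the regulators, the 4 largest rises and falls called with the block plus genes of the Rab3 cycle, of which 1 is not reported here. Dmxl2, Gapvd1 and other genes given by log2 fold change alone were named after their values were seen. The members, roles, lists and rules were chosen with earlier results of these data known. Alternatives were array weights, no filter beyond that of the authors, log2(CPM + 1) with a pseudocount of 1, median centring, the removal of an exon length trend, each pool left out, and a minimum log2 fold change of 1 in either direction.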

Additional observations from a re-analysis of the deposited data

Results flagged for a closer look

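The level of each Rab gene, and of the named regulators and effectors, was searched within each fraction for values set apart from the remaining 3 (Dixon's ratio above its 95% critical value). Of 132 groups of 4 libraries, 10 held such a value, and about 1 in 20, or 6.6, would by chance.

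TRAP VP2.11 was low for Rab15 (4.65 on the log2 CPM scale, others 5.71 to 5.87) and Rab6b (8.76, others 9.09 to 9.16) and high for Rab42 (1.88, others 1.4 to 1.47) and Exph5 (4.23, others 2.40 to 2.51). TRAP VP2.6 was high for Rab3b (8.33, others 8.0 to 8.03) and Rab40c (4.31, others 3.81 to 3.84). TRAP VP2.2 was high for Rab22a (4.85, others 4.37 to 4.44). INPUT VP2.2 was low for Rab14 (7.30, others 7.96 to 8.07), Rab3gap1 (5.46, others 6.11 to 6.22) and Tbc1d30 (3.26, others 4.06 to 4.22). No explanation of these values was tested.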

How the results depend on the processing

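Depth is unknown in VP1.6 and VP2.11, so counting error cannot be given there. The lowest members in TRAP (Rab4b, Rab29, Rab7b, Rab39 and Rab34) rest on few reads. The pool block took the Rab genes from 2 higher and 24 lower to 0 and 15, and the regulators and effectors lower in TRAP from 13 to 8. A minimum log2 fold change of 1 in either direction left 0 Rab genes higher and 10 lower, and 13 regulators and effectors higher and 6 lower. Array weights gave 20 regulators and effectors lower, and with the replicate block 1 Rab gene higher, Rab3c. With the exon length trend out, the regulators and effectors had 17 higher and 23 lower, 13 higher with the replicate block, and the late endosome and lysosome median was -0.26; with the block too, 1 Rab gene, Rab3a, was higher and 19 lower (this combination was chosen after seeing the data). Leaving out 1 pool gave 0 to 2 Rab genes higher and 14 to 23 lower, 5 to 14 regulators and effectors lower, a Rab3 and Rab27 median of -0.062 to 0.13 (0.11 without VP2.6) and a cilia median of -0.67 to -0.37. The lowest counts came without VP2.6. Of the 24 genes lower without the block, 11 kept the call whichever pool was left out, and of the 15 with it, 9 did. Why these counts moved was not tested.

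Of the regulators and effectors called without the block, Rabgap1l alone changed sign, from 0.72 to -0.028 with the length trend out (with the block too). The medians of the regulators and effectors (-0.057), the endosomal effectors (-0.057) and the Golgi effectors (-0.19) turned negative with it. No called Rab gene changed sign. The other changes listed here are of Rab genes, pairs and Rims2, none of them called in the main fit or with the block. Of these, Rab33a alone was called at its changed sign, with the length trend out and without the block (limma's adjusted p 0.027). Regulators and effectors not called in the main fit also changed sign with the length trend out and are not all listed. Among them, Eea1 went from 0.060 to -0.39 and was then called lower without the block (limma's adjusted p 0.024). Array weights gave Rab23 -0.16, Rab33a 0.016, Rab3b 0.028, Rab3d -0.0093, Rab7 0.012 and Rab9b -0.025, and with the replicate block Rab23 -0.12, Rab7 0.036 and Rab9b -0.039. The length trend out gave Rab14 -0.28, Rab23 -0.33, Rab2a 0.065, Rab33a 0.38, Rab39 0.12, Rab6b -0.015, Rab7 0.18 and Rab3a minus Rab3c 0.48, the same for the genes with the block. Median centring gave Rab39 0.019 and Rab7 0.027, and log2(CPM + 1) gave Rab4a minus Rab4b -0.13. Leaving out 1 pool gave Rab23 -0.092 to 0.23, Rab33a -0.24 to 0.012, Rab39 -0.24 to 0.27 (0.015 without VP2.6), Rab39b -0.18 to 0.027, Rab6a -0.21 to 0.072, Rab7 -0.15 to 0.070 (0.053 without VP2.6), Rab9b -0.15 to 0.19, Rims2 -0.37 to 0.14 (0.017 without VP2.6), Rab40b minus Rab40c -0.065 to 0.27, Rab2a minus Rab2b -0.12 to 0.16 (-0.081 without VP2.11), Rab3a minus Rab3c -0.57 to 0.099 and Rab39b minus Rab39 -0.40 to 0.060 (0.011 without VP2.6). The cause was not tested.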
